A study of Mus musculus with 2 samples.

Results

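The 10 genes described here encode surface glycoproteins and granule proteins of platelets: Gp1ba, Gp1bb, Gp5, Gp6, Gp9, Vwf, Pf4, Ppbp, Itgb3 and Treml1. They were chosen by name, and all 10 were found by gene identifier among the 42462 named genes of the tables. They were measured in megakaryocyte-erythroid progenitors (MEP), bone marrow cells that give rise to red cells and to the megakaryocytes that shed platelets. The cells were primary cells of male C57BL/6J mice aged 5 to 6 weeks, with no treatment named and no second condition. Total RNA above 200 bases was sequenced from 2 libraries of 100 cells each, labelled biological replicates 1 and 2, which have separate biosamples but 1 donor record. Both belong to 1 group, so the spread between them may be technical, and no test between groups was possible. How the cells were sorted is not stated in the text of the labels.

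Platelets catch the vessel wall through the GPIb-IX-V complex, made of the products of Gp1ba, Gp1bb, Gp9 and Gp5, which binds von Willebrand factor, the product of Vwf. Collagen is bound by glycoprotein VI, the product of Gp6, which signals through the Fc receptor gamma chain, and fibrinogen by the integrin of the Itga2b and Itgb3 products. Alpha granules store von Willebrand factor and the chemokines platelet factor 4 (Pf4) and pro-platelet basic protein (Ppbp), and carry the receptor TLT-1 (Treml1) on their membranes. Most of these proteins are made in quantity as megakaryocytes mature.

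In these progenitors 3 of the 10 genes, Vwf, Gp5 and Gp1ba, reached 1 TPM in both libraries. Gp9 did so in replicate 2 only, and 6 genes were under 1 TPM in both. TPM is the authors' length-corrected share of all transcripts. Reaching 1 TPM in both libraries was true of 44.2% of 21461 protein-coding nuclear genes, and being under it in both was true of 51.7%. Taken over the 10 genes, the median of mean TPM was 0.417, beside 0.445 for all protein-coding nuclear genes. The chemokine and collagen receptor genes stood at or near the floor: Ppbp and Gp6 had 0 counts in both libraries, and Pf4 had 0 counts in replicate 1 and 8 in replicate 2. Of protein-coding nuclear genes, 39.9% had 0 counts in both. In bulk RNA, a few cells with much of a transcript and many cells with little of it cannot be told apart.

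Replicate 1 had 30016974 expected counts, 45.0% of them on protein-coding nuclear genes, and replicate 2 had 51510347, with 50.1% on such genes. A count of 0 therefore allows a higher level in replicate 1 than in replicate 2. The erythroid list marked the cells as labelled: each of its 12 genes was at 1 TPM or more in both libraries, and the list medians were 99.3 and 105 TPM. Genes of other lineages were also measured. The 15 granulocyte and monocyte markers summed to 1902 TPM in replicate 1 against 8.22 TPM in replicate 2, and the 11 B-lineage markers to 10.4 against 158 TPM. The 11 T and NK markers summed to 58.1 and 44.0 TPM, and 7 of them were at 1 TPM or more in both libraries. The part of these cells in the members' values was not tested.

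To show the start sites behind the values, the 250 bases before the RefSeq start of transcription (GRCm38.p6) are printed for the 3 complex subunits with counts in both libraries and no overlapping gene, and for Ppbp, which had none. Capitals mark AGATAA or its reverse complement TTATCT, a sequence bound by GATA factors, and AGGAAG or CTTCCT, a sequence bound by ETS factors. Both families regulate megakaryocyte genes.

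Gp5, chr16:30310782-30311031, minus strand: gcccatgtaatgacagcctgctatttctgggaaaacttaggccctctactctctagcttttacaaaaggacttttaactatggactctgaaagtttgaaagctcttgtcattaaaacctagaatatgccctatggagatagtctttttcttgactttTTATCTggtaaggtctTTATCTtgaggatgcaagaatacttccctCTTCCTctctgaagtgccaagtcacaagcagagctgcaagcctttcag
Gp1ba, chr11:70638872-70639121, plus strand: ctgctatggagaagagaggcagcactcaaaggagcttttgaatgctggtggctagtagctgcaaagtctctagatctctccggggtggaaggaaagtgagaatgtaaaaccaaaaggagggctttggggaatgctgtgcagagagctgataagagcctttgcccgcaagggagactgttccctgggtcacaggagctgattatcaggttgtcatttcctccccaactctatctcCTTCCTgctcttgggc
Gp9, chr6:87777820-87778069, plus strand: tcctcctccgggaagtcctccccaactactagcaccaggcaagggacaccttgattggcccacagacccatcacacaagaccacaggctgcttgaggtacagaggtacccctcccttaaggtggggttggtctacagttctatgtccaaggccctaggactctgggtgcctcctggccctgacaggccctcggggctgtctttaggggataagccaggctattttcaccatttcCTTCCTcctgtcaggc
Ppbp, chr5:90768268-90768517, plus strand: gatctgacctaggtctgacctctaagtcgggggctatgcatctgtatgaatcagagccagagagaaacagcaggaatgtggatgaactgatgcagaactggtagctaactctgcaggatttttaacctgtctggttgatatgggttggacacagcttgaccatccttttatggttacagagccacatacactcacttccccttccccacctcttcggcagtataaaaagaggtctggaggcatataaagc

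The Gp5 window held 2 GATA matches and 1 ETS match, with no overlap between them. The windows of Gp1ba and Gp9 each held 1 ETS match, and both of these began at position -16, counted from the start. In the Ppbp window neither motif was matched. RefSeq windows were matched for 8 of the 10 members. The GATA motif as searched, AGATAA or TTATCT, was in 2, Gp5 and Gp6. The ETS motif was in 4, Gp1ba, Gp5, Gp9 and Pf4. Only these exact sequences were searched. Other sequences with GATA in them, such as TGATAA in the Gp1ba window, were not counted, so no match does not mean no GATA site. Of 32851 promoter windows of the same length, 9.99% held the GATA motif, 29.5% the ETS motif and 2.95% both. Gp6, which had 0 counts in both libraries, was thus among the genes with a GATA match.

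Within the adhesion complex, Gp5 was the highest subunit gene and Gp1bb the lowest. Gp5 (ENSMUSG00000047953.6, mm10 chromosome 16, 30307685 to 30310779), a leucine-rich repeat subunit that thrombin cleaves, had 176 counts and 3.89 TPM in replicate 1, against 485 counts and 6.19 TPM in replicate 2. The deposited credibility bounds were 3.22 to 4.32 TPM and 5.48 to 6.54 TPM. All of its counts were on 1 transcript model of 2196 bases, so this level does not depend on how reads were divided among models.

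Gp1ba (ENSMUSG00000050675.7, chromosome 11, 70639122 to 70642036) encodes the chain that binds von Willebrand factor. It had 77 counts and 1.48 TPM in replicate 1, against 466 counts and 4.91 TPM in replicate 2. The bounds, 1.13 to 1.77 TPM and 4.35 to 5.23 TPM, were far apart. Of the 6 members with counts in both libraries, Gp1ba had the largest ratio between them.

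Gp9 (chromosome 6, 87778072 to 87779768), the gene of a small subunit of the complex, was at 0.81 TPM from 12 counts and 1.81 TPM from 45 counts in replicates 1 and 2. Its bounds of 0.409 to 1.29 TPM and 1.30 to 2.32 TPM just failed to overlap. The ratio of Gp1ba to Gp9 was 1.83 in replicate 1 (95% exact interval 0.988 to 3.69) and 2.71 in replicate 2 (95% exact interval 2.00 to 3.78). In replicate 1 the interval included equal levels. The ratio of Gp5 to Gp1ba was 2.63 (95% exact interval 2.00 to 3.48) in replicate 1 and 1.26 (95% exact interval 1.11 to 1.43) in replicate 2. Gp5 was above Gp1ba in both libraries, but by a margin that moved with the level of Gp1ba. All such intervals are exact Clopper-Pearson intervals conditional on the summed counts, and they cover counting error only, since amplified reads are not independent molecules.

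Gp1bb (chromosome 16, 18620317 to 18622403), the partner joined to the Gp1ba product by disulfide bonds, was at 0.53 TPM from 20.06 counts in replicate 1 and had 0 counts in replicate 2. In replicate 2 the upper credibility bound was 0.176 TPM. The exact 95% upper bound of the TPM ratio of replicate 2 to replicate 1 was 0.183, the reverse of the direction of Gp5, Gp1ba and Gp9. In replicate 2 that credibility bound lay under the lower bound of Gp1ba, 4.35 TPM. The value of Gp1bb itself is uncertain, because the gene overlaps the septin gene Sept5 on the same strand, by 1902 bases of gene span in GENCODE M21. In exons, M21 gives 593 shared bases for the model Gp1bb-201 and 0 for Gp1bb-202, each with a model of Sept5. M21 also has the gene Gm49601 across Gp1bb on that strand, which is not analysed here. Sept5 had 9.94 counts in replicate 1 and 0 in replicate 2, and the counts of the pair sum to 30.00, a whole number, so reads that matched both were divided between them. All Gp1bb counts were on Gp1bb-202, counted as a model of 1847 bases, and none on Gp1bb-201, counted as one of 645 bases. M21 gives them other lengths, 1086 and 2085 bases, so the exon overlap in the annotation used for counting may differ.

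**Figure D1:**
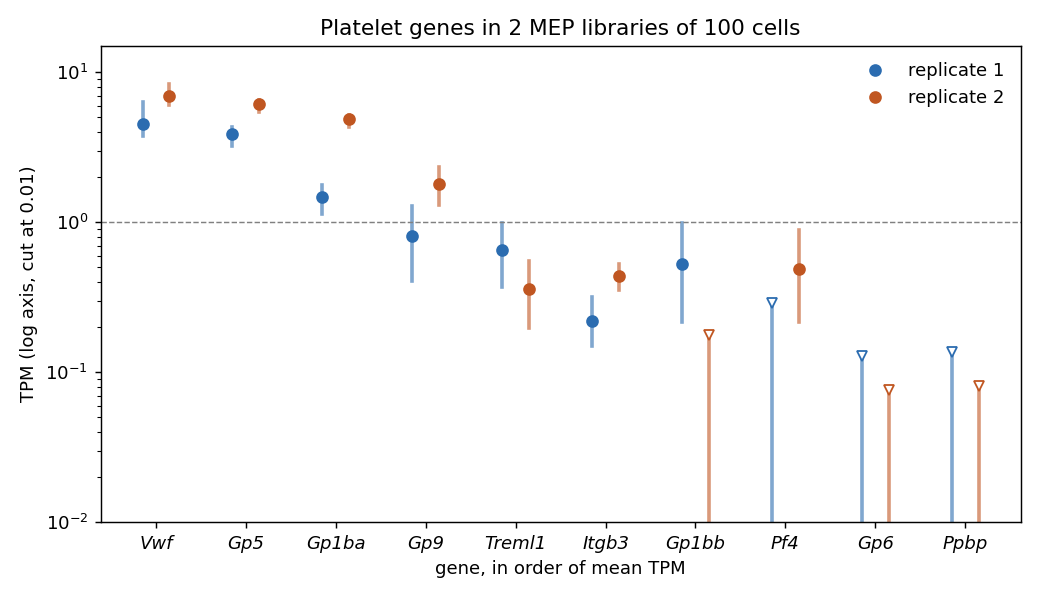
TPM of each of the 10 genes in replicate 1 (blue) and replicate 2 (orange) on a log axis, with lines for the deposited credibility bounds, cut at 0.01, and open triangles at the upper bound where the gene had 0 counts. Vwf, Gp5 and Gp1ba lie above the dashed line at 1 TPM in both libraries, while Ppbp and Gp6 have upper bounds of at most 0.137 TPM.

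The other receptors for matrix and plasma proteins were low or not detected. Gp6 (chromosome 7, 4363965 to 4397744) had 0 counts in both libraries, with upper credibility bounds of 0.129 and 0.0762 TPM in replicates 1 and 2. A floor of 3 counts corresponds to 0.134 and 0.0788 TPM for its effective length. Its signalling partner Fcer1g, which other blood cells share, was at 3.74 and 1.73 TPM, at least 27.8-fold and 22.0-fold above Gp6 in replicates 1 and 2. Gp6 was therefore not detected in these libraries, while the gene of its signalling chain was measured.

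Itgb3 (chromosome 11, 104608000 to 104670476), the beta chain of the fibrinogen receptor, had 27 counts and 0.22 TPM in replicate 1, against 95 counts and 0.44 TPM in replicate 2. Its bounds, 0.150 to 0.316 TPM and 0.351 to 0.524 TPM, did not overlap. The alpha chain gene Itga2b, which encodes the progenitor marker CD41, was at 11.45 and 14.50 TPM. It exceeded Itgb3 by 52.0 times in replicate 1 (95% exact interval 35.5 to 81.1) and 33.0 times in replicate 2 (95% exact interval 26.7 to 41.5). The size of this excess rests on short transcript models: the 3437-base coding model of Itga2b held 72.3% and 32.2% of the gene's counts but 27.8% and 11.2% of its TPM. With counts divided by the length of each gene's longest model, Itga2b exceeded Itgb3 by 20.2 and 11.6 times. The alpha chain gene was above the beta chain gene on both scales.

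Treml1 (chromosome 17, 48359916 to 48367176), the granule membrane receptor, had 16 counts and 0.65 TPM in replicate 1, against 15 counts and 0.36 TPM in replicate 2. The bounds of 0.371 to 0.990 TPM and 0.196 to 0.556 TPM overlapped, and the ratio of replicate 2 to replicate 1 was 0.554 (95% exact interval 0.252 to 1.18). Of 5 other genes of the TREM family in the tables, 1 was at 1 TPM or more in both libraries: Treml2, a receptor gene of lymphoid and myeloid cells, at 9.35 and 18.47 TPM. Trem1, Trem2 and Treml4 had 0 counts in both, and Trem3 had 30 counts in replicate 1 only.

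Of the genes of granule contents, Vwf had counts in both libraries, Pf4 in replicate 2 and Ppbp in neither. Vwf (ENSMUSG00000001930.13, chromosome 6, 125546774 to 125686679) had the highest gene-level TPM of the 10, with 330 counts and 4.55 TPM in replicate 1 against 597 counts and 6.99 TPM in replicate 2. Its credibility bounds, 3.75 to 6.33 TPM and 6.09 to 8.33 TPM, overlapped. Platelet factor 4, from Pf4 (chromosome 5, 90772435 to 90773383), is among the most abundant granule proteins of platelets. Pf4 was at 0.49 TPM from 8 counts in replicate 2, with bounds of 0.216 to 0.895 TPM, and had 0 counts in replicate 1, where the upper bound was 0.290 TPM. The exact 95% lower bound of the ratio of replicate 2 to replicate 1 was 1.04 in TPM but 0.894 in counts scaled to protein-coding genes, so a difference was not shown on both scales. Ppbp (chromosome 5, 90768518 to 90770063), which lies 2371 bases from Pf4 on the same strand, had 0 counts in both libraries, with upper bounds of 0.137 and 0.0812 TPM. The 5 other CXC chemokine genes listed as neighbours, Cxcl1, Cxcl2, Cxcl3, Cxcl5 and Cxcl15, also had 0 counts in both.

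Vwf is also a gene of endothelial cells, and Pf4 has been seen in macrophages. Of 12 endothelial markers, 3 were at 1 TPM or more in both libraries, Egfl7, Pecam1 and Plvap, and 8 were under 1 TPM in both. Cdh5 had 0 counts in replicate 1 and 1 in replicate 2, Kdr had 0 and 48, and Flt1 and Sox17 had none in either. Tek had 45 and 37 counts, and Tie1 had 36 and 0. The endothelial list summed to 46.8 and 50.9 TPM in replicates 1 and 2, of which Egfl7, which progenitors also express, made up 36.74 and 41.57 TPM. Of 10 macrophage markers, Cd68 alone was at 1 TPM or more in both libraries and 6 had 0 counts in both, Adgre1 and Mrc1 among them. Over all protein-coding nuclear genes these shares were 44.2% and 39.9%. C1qa had 12 and 0 counts and Cd163 had 0 and 52. The list summed to 2.72 and 3.30 TPM. The part of either cell type in the values of Vwf and Pf4 was not tested.

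How Vwf ranks depended on how its reads were shared among 12 transcript models. The 2 longest, of 8817 and 8834 bases, held 235 counts in replicate 1 and 209 in replicate 2, all on the former. This was 71.2% and 34.9% of the gene's counts but 27.1% and 8.87% of its TPM, or 1.23 and 0.620 TPM. The division between these 2 models was not resolved. The credibility bounds of the 8817-base model, 0.0856 to 1.20 TPM and 0.0177 to 0.585 TPM, lay under its own values. The 8834-base model, with 0 counts, had upper bounds of 1.05 and 0.577 TPM. The rest of the TPM, 72.9% in replicate 1 and 91.1% in replicate 2, was on shorter models, of which 3 had counts in replicate 1 and 7 in replicate 2. One of them, Vwf-209, annotated as a processed transcript of 456 bases at the end of the gene (125685737 to 125686635), held 12.6 counts in replicate 1 and so 39.18% of the gene's TPM. In replicate 2 the leading model was Vwf-204, a processed transcript of 610 bases, with 34.0 counts and 28.35% of the TPM. Of the bases of Vwf-204, 34.9% lie in exons of the coding model Vwf-203, and 11.9% of those of Vwf-207, a retained-intron model with 13.4 and 49.1 counts. Of the other shorter models with counts, Vwf-208 had 31.5% of its bases in those exons, Vwf-211 83.5%, Vwf-209 84.0%, Vwf-206 89.3% and Vwf-210 100%. In replicate 1, where Vwf-204 and Vwf-208 had 0 counts, Vwf-207 held 6.69% of the gene's TPM.

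Shorter models, defined as under 90% of the length of the longest, held at least 70% of TPM in both libraries for 20.9% of 2916 protein-coding genes with several models, counts in both libraries and a mean of 1 to 10 TPM. The median share over these genes was 38.8% in replicate 1 and 35.8% in replicate 2.

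**Figure D2:**
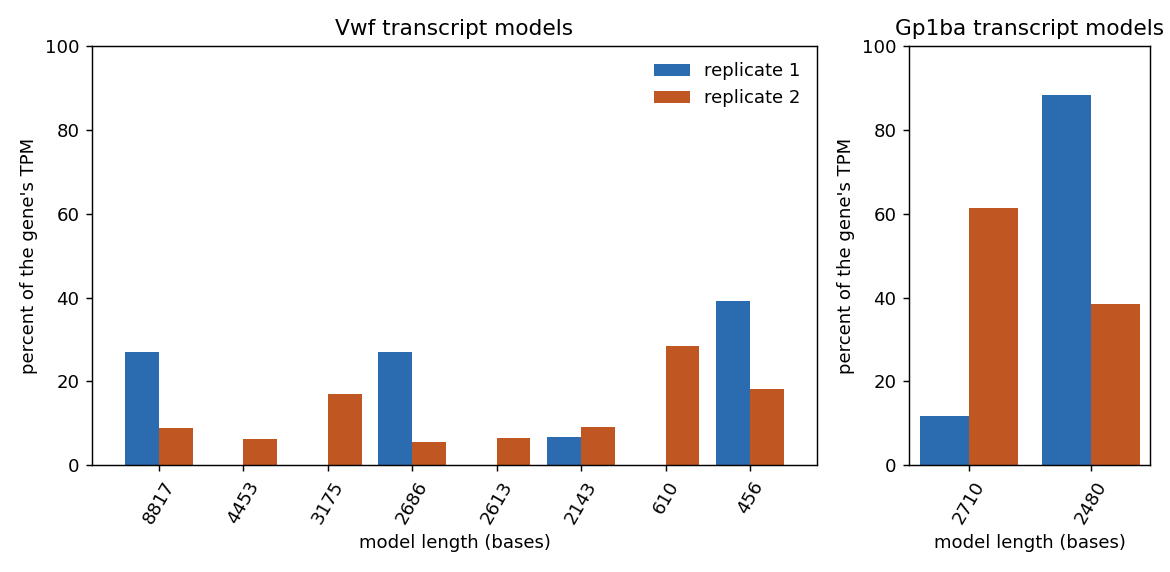
Percent of the gene's TPM on each transcript model with counts, by model length in bases, for Vwf (left) and Gp1ba (right) in replicate 1 (blue) and replicate 2 (orange). The 8817-base model of Vwf holds 27.05% and 8.93%, and the leading Gp1ba model changes from the 2480-base to the 2710-base model.

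Gp1ba has 2 coding models, of 2710 and 2480 bases, which share 2472 exon bases. The longer model held 9.80 counts in replicate 1 and 297 in replicate 2, that is 11.72% and 61.41% of the gene's TPM. The shorter one held 67.2 and 169 counts. So the leading model differed, but few bases separate the models, and the gene-level count does not depend on that division. Of the 3 members with several models and counts in both libraries, Vwf, Gp1ba and Itgb3, the leading model differed for Vwf and Gp1ba, against 42.5% of the 2916 genes described above. Itgb3 had all counts on its 5784-base coding model in both libraries. Its mean of 0.330 TPM lies under the range of 1 to 10 TPM of those 2916 genes, so it is not among them.

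CPM are counts scaled to a fixed total over protein-coding nuclear genes. With CPM divided by the effective length of the longest model in kilobases, a scale added after the data were seen, Gp5 led in both libraries. It stood at 6.32 in replicate 1 and 9.26 in replicate 2. Vwf was at 2.81 and 2.67, at rank 2 in replicate 1 and rank 4 in replicate 2. Gp1ba was at 2.21 and 7.10, and Gp9 at 1.31 and 2.70. Gp5 exceeded Gp1ba, and Gp1ba exceeded Gp9, in both libraries on this scale as in TPM.

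**Figure D3:**
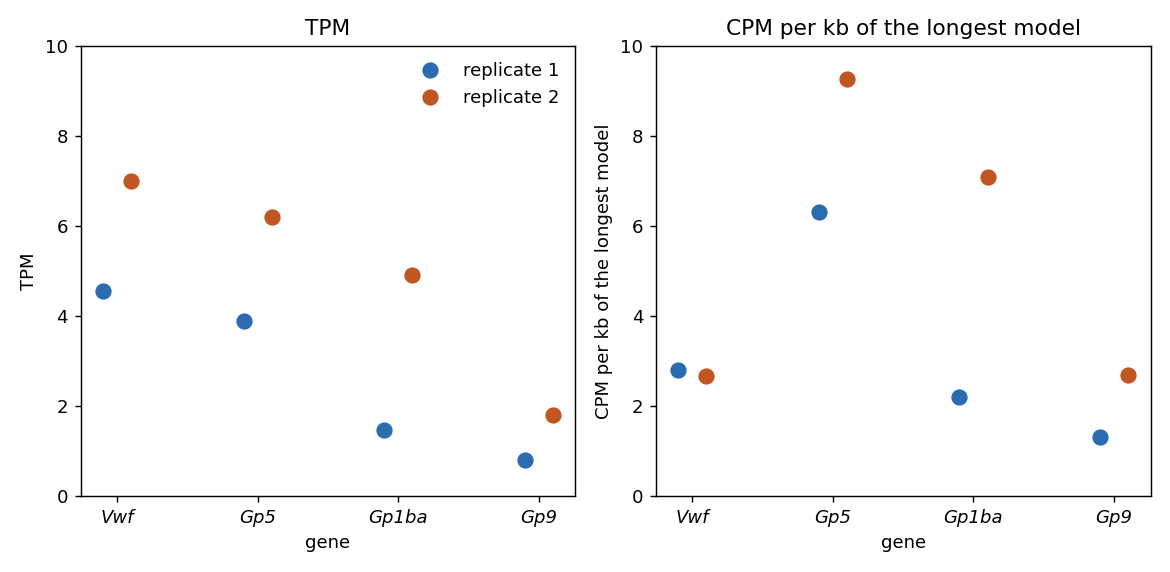
Levels of Vwf, Gp5, Gp1ba and Gp9 in replicate 1 (blue) and replicate 2 (orange), as TPM (left) and as CPM per kb of the longest transcript model (right). Vwf is highest in TPM, at 4.55 and 6.99, while Gp5 is highest on the right, at 6.32 and 9.26.

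By mean TPM the order was Vwf at 5.77 ± 1.73, Gp5 at 5.04 ± 1.63, Gp1ba at 3.20 ± 2.43, Gp9 at 1.31 ± 0.707, Treml1 at 0.505 ± 0.205 and Itgb3 at 0.330 ± 0.156 TPM (SD, n = 2). Gp1bb and Pf4 followed, each with 0 counts in 1 library, and Gp6 and Ppbp had none. No neighbours in this order were separated when the range over both libraries and the credibility bounds in each are both considered. For Gp5 and Gp1ba the bounds were apart within each library, but Gp1ba in replicate 2 exceeded Gp5 in replicate 1. For Gp9 and Treml1 the ranges were apart, but the bounds overlapped in replicate 1.

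Between the libraries, 6 of the 10 members had a higher TPM in replicate 2 and 2 a higher TPM in replicate 1. TPM was higher in replicate 2 for 67.3% of 9982 protein-coding nuclear genes with a mean of at least 1 TPM, whose median log2(TPM + 1) difference, replicate 2 minus replicate 1, was 0.18 with an SD of 0.58. All 4 members at that mean, Vwf, Gp5, Gp1ba and Gp9, had a higher TPM in replicate 2. Of these 4, 1 differed by at least 2-fold in log2(TPM + 1), Gp1ba, at a difference of 1.25. A rise of at least 2-fold was seen for 5.15% of the 9982 genes, a difference of that size in either direction for 7.61%, and for 13.6% of those with a mean of 1 to 10 TPM, where the SD was 0.71. The differences of Gp9, Gp5 and Vwf were 0.63, 0.56 and 0.53, each within 1 SD of the median.

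The TPM ratio of replicate 2 to replicate 1 was 3.32 for Gp1ba (95% exact interval 2.61 to 4.29), and the ratio of CPM was 3.17 (95% exact interval 2.49 to 4.09). For Gp5 these ratios were 1.59 (95% exact interval 1.34 to 1.90) and 1.44 (95% exact interval 1.21 to 1.73). Vwf was higher in replicate 2 in TPM, with a ratio of 1.54 (95% exact interval 1.34 to 1.76), but not in CPM, with a ratio of 0.948 (95% exact interval 0.827 to 1.09). Its effective length, a mean weighted by the models' abundance, was 3298 bases in replicate 1 and 2210 in replicate 2. This length enters its TPM and not its CPM. The scales also differ in their totals, all features for TPM and protein-coding nuclear genes for CPM. Of the 4 members with a mean of at least 1 TPM, 3 had a higher CPM in replicate 2, Vwf being the exception, against 56.6% of all such genes. For Gp9 the TPM ratio was 2.23 (95% exact interval 1.16 to 4.64) and for Itgb3 2.00 (95% exact interval 1.30 to 3.21). Each side of these ratios is 1 library, so they compare libraries and not populations of MEP.

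**Figure D4:**
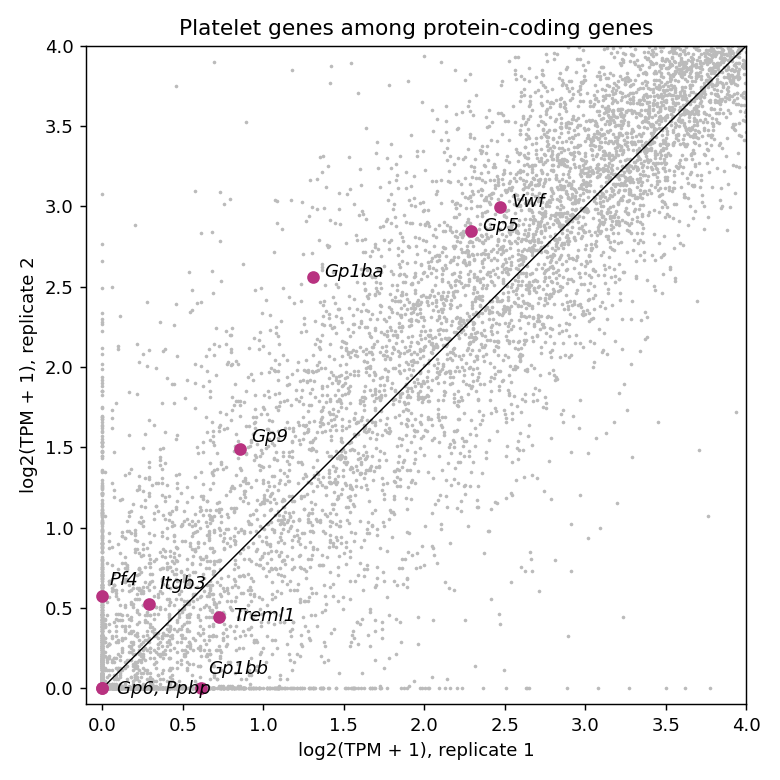
log2(TPM + 1) in replicate 2 against replicate 1 for the 10 genes (coloured, named) and all protein-coding nuclear genes (grey), shown up to 4 on both axes, with the line of equal values. Gp1ba lies 1.25 above the line, and Gp1bb and Treml1 lie below it.

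The genes lying next to the members were read at levels of their own. Atp13a3, 1643 bases from Gp5 on the same strand, was at 80.13 and 75.59 TPM in replicates 1 and 2. Slc25a11, 2159 bases from Gp1ba on the opposite strand, was at 25.79 and 29.72 TPM. Ano2, 3739 bases from Vwf, had 0 counts in both. Gp9 lies 591 bases from the long non-coding RNA gene Gm43904, which is not analysed here.

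The 5 lists of related genes held 101 genes, of which 63 were at 1 TPM or more in both libraries and 30 under it in both. The same was true of 44.2% and 51.7% of all protein-coding nuclear genes. All 17 megakaryocyte transcription factors were at 1 TPM or more in both, and their medians were 13.1 and 12.2 TPM. The list was led by Gfi1b, Zfpm1 and Gata1, which erythroid cells share. Fli1, an ETS factor of the megakaryocyte lineage, was at 7.72 and 4.17 TPM, and Erg, lowest by mean TPM, was at 2.79 and 6.45 TPM. All 15 genes of platelet signalling were at 1 TPM or more in both, with Tln1, the talin that activates integrins, at 72.30 and 49.52 TPM and Vav3, lowest by mean TPM, at 5.04 and 3.11 TPM. Many of these genes act in other blood cells too.

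Of 25 receptor and partner genes, 8 were at 1 TPM or more in both libraries and 13 under it in both, beside 44.2% and 51.7% of all protein-coding nuclear genes. Their medians were 0.980 and 0.460 TPM. Itgb1 was at 33.13 and 30.81 TPM, the thrombin receptor gene F2r at 15.83 and 12.08 TPM and the ADP receptor gene P2ry1 at 8.20 and 8.99 TPM. The second ADP receptor gene, P2ry12, had 0 counts in both. Clec1b, the podoplanin receptor, had 4 counts in replicate 1 and 0 in replicate 2.

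Of 32 granule genes, 14 were at 1 TPM or more in both libraries and 15 under it in both, 7 of these with 0 counts in both. These shares are near the 44.2% and 51.7% of all protein-coding nuclear genes. Srgn, the proteoglycan that holds granule contents, was at 137.57 and 151.59 TPM, the fusion protein gene Vamp8 at 93.07 and 150.70 TPM, and Tgfb1 at 57.80 and 74.25 TPM. Slc18a2, the transporter that loads dense granules, was at 5.54 and 7.80 TPM, and Nbeal2, needed for alpha granules, at 5.14 and 4.27 TPM. F13a1, a clotting factor subunit, had 6 counts and 1 count, and Fga, Clu and Sparc had none. Of 12 genes of the cytoskeleton and platelet formation, 9 were at 1 TPM or more in both. Tuba4a was at 113.84 and 109.25 TPM, whereas Tubb1, the beta tubulin of platelets, and Myl9 had 0 counts in both. The genes named here and above with 0 or few counts that are no members, and Tek, Tie1, Cd163, Slc18a2, Nbeal2 and Fli1, fall outside the naming rule and were picked after their values were seen.

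**Figure D5:**
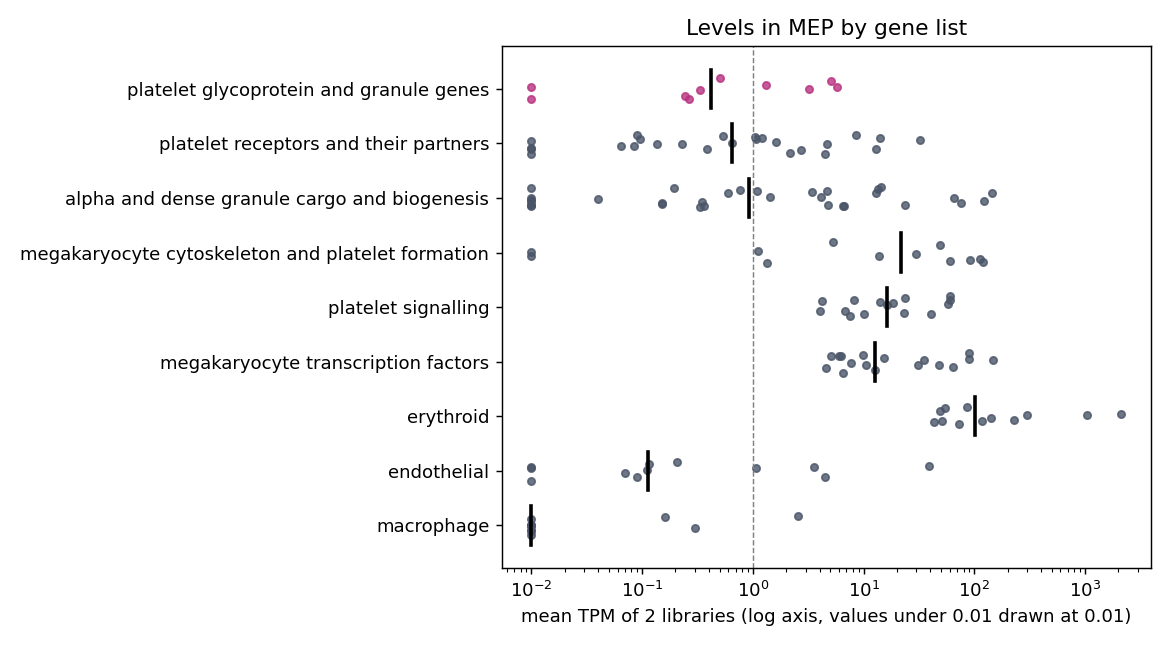
Mean TPM of each gene (points) on a log axis by list, with the list median as a black line and values under 0.01 drawn at 0.01. The platelet glycoprotein and granule genes (coloured) have a median of 0.417 TPM, while all 17 megakaryocyte transcription factors and all 12 erythroid genes lie above the dashed line at 1 TPM.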

How the data were processed

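Total RNA was measured in 2 libraries of 1 group. Genes and transcripts were quantified by the authors on mm10 with GENCODE M4, per the README deposited beside the tables. Which aligner and quantifier made them is not given in the sources used here. Expected counts, as deposited, are estimates and need not be whole. The deposited TPM was scaled by the authors for effective length to a fixed sum over all features, ribosomal RNA included. The deposited FPKM was used as an alternative. The deposited signal columns used are credibility bounds of TPM. The deposited percent columns give a transcript's share of its gene's TPM. The deposited score column, a posterior standard deviation, was not used.

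Symbols, biotypes and coordinates came from GENCODE M21 (GRCm38, the assembly of mm10), by identifier without version. Of 43346 genes 42462 matched. Promoters came from the RefSeq table of GRCm38.p6, and protein sequences were not used here. The members and gene lists were chosen with earlier results of these data known. All members are named. The rule for other genes took complex partners, genes within 5000 bases of a member, and from each list those at 1 TPM in both libraries (over 6 of them, the 4 highest and 2 lowest by mean TPM); not all of these are named, and some are not reported here. No p-values were computed. The difference between libraries used log2(TPM + 1), which understates changes of low genes. Ratio intervals (95%) and the 3-count floor take in counting error only. The interval code was tested on simulated data. The libraries were no duplicates: over 11453 genes, chi-square divided by its degrees of freedom was 62.8. Alternative scalings used edgeR 4.0.16 (TMM) and DESeq2 1.42.0 (size factors) in R 4.3.3, after rounding expected counts. Other steps used Python 3.11.15, numpy 2.4.6, pandas 2.3.3, scipy 1.17.1 and matplotlib 3.10.9.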

Additional observations from a re-analysis of the deposited data

How the results depend on the processing

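Members detected in both libraries numbered 3 at 1 TPM, beside 44.2% of protein-coding nuclear genes. They numbered 6 at a minimum of 0.1 TPM, of 3 counts with a lower bound above 0, or of 10 counts. For these 6 genes such minimums lie under 1 TPM. The shares over all protein-coding nuclear genes at those minimums are not given here, so the 6 cannot be set against a background. Each library alone gave 3 to 4 members at 1 TPM. Over the 10 genes the median of mean TPM, 0.417, became 0.981 with TPM rescaled to protein-coding nuclear genes, 1.10 as CPM, 1.10 with TMM factors, 1.10 with DESeq2 size factors, 0.310 as FPKM and 0.653 as CPM per kb of the longest model, since the units differ; each library alone gave 0.465 to 0.590. Without length correction Gp1ba exceeded Gp9 by 9.03 times as CPM and 8.99 times with TMM or DESeq2 factors, against 2.44 from mean TPM, and Itga2b exceeded Itgb3 by 8.52 as CPM and 8.57 with either set of factors, against 39.3. Per kb of the longest model, a scale chosen after seeing the data, Itga2b exceeded Itgb3 by 14.6 and Vwf ranked 3 in place of 1. Gp5 exceeded Gp1ba by 1.58 from mean TPM and by 1.26 to 2.63 in each library alone. Among members with a mean of at least 1 TPM, 2 differed by at least 2-fold between libraries with a pseudocount of 0.1. With the pseudocount of 1 it was 1, so Gp9 was added. Members under that mean, such as Gp1bb and Pf4 with 0 counts in 1 library, are not in this count. Gp1ba over Gp9 ran from 1.83 to 2.71 and Itga2b over Itgb3 from 33.0 to 52.0 in each library alone. The count of related genes at 1 TPM in both libraries was 63. It became 61 with FPKM, and 72 with CPM, TMM or DESeq2 factors, units that differ from TPM. Gp6 and Ppbp had 0 counts in both libraries, and Pf4 had 0 counts in replicate 1, the shallower library. The part of depth in these values was not tested. Gp1bb had its 0 counts in replicate 2, the deeper library, and its value is uncertain because of the overlap with Sept5. No paired analysis was possible because the series has 1 group.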
